A study of Mus musculus with 2 samples.

Results

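Genes for the degradative enzymes of lysosomes, for the membrane proteins around them and for the proton pump that acidifies them were read on expression arrays of sorted mouse neutrophils, the phagocytes that kill engulfed microbes. The set was defined by gene names with no cut on its values, but it was chosen with earlier results of these data known. It took every probe set annotated with a single symbol that was either a subunit of the vacuolar proton pump (symbols starting Atp6v0 or Atp6v1) or one of 42 listed genes for cathepsins other than Ctsc, Ctsg and Ctss, glycosidases, lipid hydrolases, lysosomal membrane proteins, their transcription factors and lysozymes. This gave 128 of 45037 probe sets, for 61 of 18193 genes. Of the 42 listed genes, 41 had such a probe set, and Cd63 was not analysed here.

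One array held RNA of bone marrow neutrophils labelled Jdp2 KO, and the other held RNA of bone marrow neutrophils labelled Jdp2 WT. Both came from mice of a mixed C57BL/6 /129/J background, sorted by flow cytometry as CD11b+ cells with Ly6G and low Ly6C. Jdp2 encodes a leucine-zipper protein that pairs with Jun proteins and mostly represses transcription. The labels do not give how the allele was made, the age of the mice or how many mice each array held.

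Lysosomes are acidic organelles in which hydrolases break down proteins, sugars and lipids. The vacuolar proton pump drives protons into their lumen with the energy of ATP, and most of the hydrolases work only at the low pH that this creates. The transcription factors Tfeb, Tfe3 and Mitf raise many genes of the organelle together. Neutrophils hold much of their acid hydrolase content in primary granules, which are related to lysosomes and are filled at the promyelocyte stage.

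All values are log2 signals, and each difference is the KO array minus the WT array. With 1 array per genotype there were no replicates and no test between genotypes. Each gene is represented by the probe set whose mean of the KO and WT values was highest, and passed a level filter where the higher value reached the median of all probe sets on its array, 5.67 on the KO array and 5.65 on the WT array. Of the 61 genes, 51 passed, and all 51 were at or above the median on both arrays. The SD of the difference among passing probe sets of the same gene, pooled over 4867 genes, was 0.36. It measures probe sets on shared RNA and leaves out the spread between mice.

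The targeted gene did not check the labels. The probe set 1450350_a_at of Jdp2 read 12.38 on the KO array and 12.00 on the WT array, and the probe set 1424972_at read 5.40 on the KO array and 5.24 on the WT array, under both medians. The labels do not say whether either lies in a deleted part of the gene, so directions below refer to the arrays as labelled. All 11 neutrophil markers with a probe set passed, with differences from -0.43 to 0.24, and Camp, which encodes an antimicrobial peptide of granules, read 14.51 on the KO array and 14.54 on the WT array. The array maxima were 14.56 on the KO array and 14.54 on the WT array, so differences of Camp and other markers near them can be compressed. Ly6g, Retnlg and Cebpe were not analysed here. Of 15 passing monocyte and macrophage markers, 14 had a difference above 0 and 9 were at least 2-fold higher on the KO array, with a median difference of 1.15. Since 6 of the 15 passed through the KO array alone, these values came to 6 genes and a median of 0.82 with the lower value raised to its array median. Their signals summed on the linear scale to 9561 on the KO array and 5664 on the WT array, over 16 genes of which Irf8 alone lay under the median on both arrays. All 5 promyelocyte granule markers were at least 2-fold higher, with linear signals summing to 5550 on the KO array and 1283 on the WT array. Of the 5, 2 passed through the KO array alone. Their median difference of 3.62 came to 2.73 with the lower value raised to its array median, and all 5 stayed past 2-fold. Of 5 platelet markers 4 lay above 0, 3 of them at least 2-fold higher, and Itga2b lay below 0 at -0.34. Their median difference was 1.09, with linear signals summing to 3265 on the KO array and 1103 on the WT array. Dendritic cell markers went both ways, with 3 of 5 passing ones above 0 and 2 below 0, the lowest H2-Aa at -0.76. Of the 5, 2 were at least 2-fold higher, or 1 with the lower value raised to its array median. Linear signals over the list of 8 summed to 911 on the KO array and 617 on the WT array. Of 6 B cell markers 3 passed, all above 0. Of 8 eosinophil, basophil and mast cell markers 2 passed, both above 0. In each of these 2 lists 1 was at least 2-fold higher, or 0 with the lower value raised to its array median. Of 7 osteoclast markers 2 passed, 1 on each side of 0, and no erythroid marker passed. The part of these cells or stages in the results below was not tested, and in such sorted bulk RNA fewer cells of a type and less RNA per cell cannot be told apart.

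Across the 51 passing genes, each on the probe set that represents it, 1 was at least 2-fold higher on the KO array and 1 at least 2-fold lower. Over the 99 passing probe sets of the lysosomal genes, 3 were at least 2-fold higher and 1 at least 2-fold lower. Among all 19604 passing probe sets, 550 and 457 were. Over all 11168 passing genes, 3.06% were at least 2-fold higher and 2.33% at least 2-fold lower, so the lysosomal genes past 2-fold were close to that background. At 1.5-fold, 1 was higher (Ctsl) and 5 were lower (Ctse, Tfeb, Atp6v1g2, Atp6v1h and Atp6v0a1), against 8.49% and 8.86% of all passing genes. The differences lay below 0 for 32 of the 51 genes, against 55.1% of all passing genes, and their median was -0.09, against -0.04 for all passing genes. The groups within the set did not share 1 direction: the pump had the lowest median of the 5 groups with at least 5 passing genes, at -0.22, and the lipid hydrolases the highest, at 0.20.

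**Figure D1:**
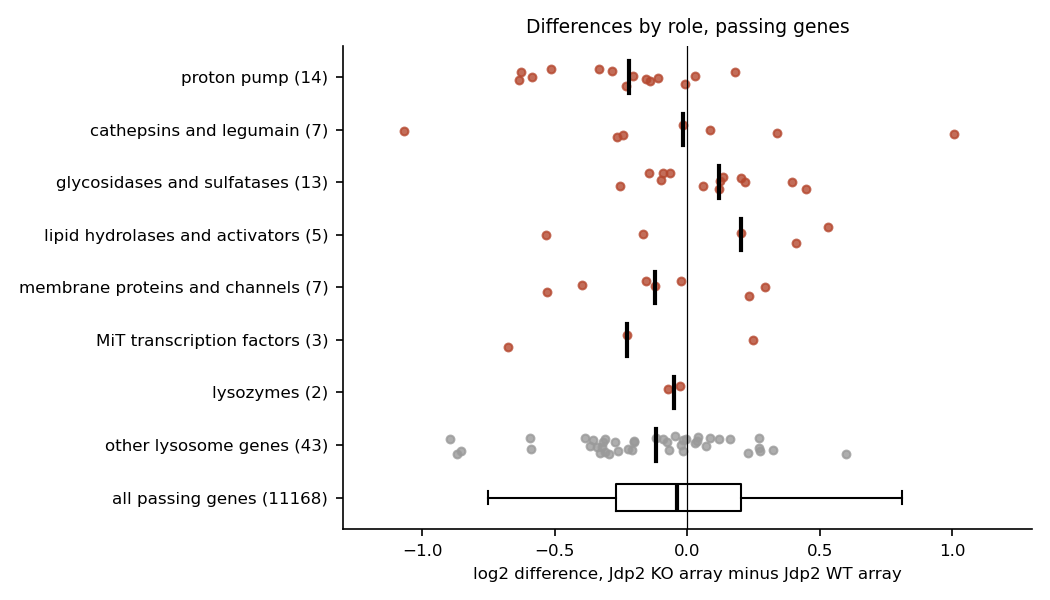
Log2 difference of each passing gene, KO array minus WT array, by role, with the number of genes in brackets and a black bar at the median. The grey points are other genes of the lysosome, and the box shows all passing genes with quartiles and whiskers at the 5th and 95th percentiles. The pump genes lie mostly left of 0, with a median of -0.22, the 2 lysozyme genes lie just below 0, and the other groups spread to both sides.

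The transcription factors that act on lysosomal genes had differences of both signs. Tfeb, which enters the nucleus when nutrients are scarce and switches on lysosomal genes, read 6.77 on the KO array and 7.45 on the WT array, a difference of -0.68. A difference of at least that size in either direction was seen for 13.4% of all passing genes. Tfe3, its close relative, read 11.87 on the KO array and 12.10 on the WT array, a difference of -0.23 that is smaller than the spread between probe sets. Mitf, the relative best known from pigment cells and osteoclasts, read 10.19 on the KO array and 9.94 on the WT array, and its 2 passing probe sets differed by 0.25 and 0.28. The differences of Mitf were also smaller than the spread between probe sets, so among the 3 factors only that of Tfeb, read by a single probe set, exceeded it.

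These factors bind an E-box element, described first in human cells as the CLEAR element, in promoters of lysosomal genes. RefSeq promoter windows on GRCm38.p6, running from 250 bases before the start to 50 bases after it, were found for 50 of the 61 genes. The letters TCACGTGA, the core of the element, which reads the same on both strands, stood in the windows of 8 of the 50 genes (16%), against 304 of all 27025 genes in the table (1.12%). The shorter E-box CACGTG, which every TCACGTGA contains, stood in 17 of the 50 (34%), against 8.09% of all genes. Sites of the kind that Jdp2 binds with its partners were counted as well. TGACGTCA, the cyclic AMP element, stood in 2 of the 50 genes (4%) against 2.03% of all genes. TGAGTCA, the AP-1 element, searched on both strands, stood in 3 (6%) against 5.95%. On such small counts, neither is far from the share over all genes. None of the 14 pump genes with a window held either of these, but with shares this low over all genes, 14 genes are too few to read that. The windows below were picked to show the TCACGTGA core in 3 pump subunits and in genes of opposite direction, with Gusb for the TGACGTCA element, and capitals mark those letters.
Atp6v1a (chr16:44139210-44139509, minus strand): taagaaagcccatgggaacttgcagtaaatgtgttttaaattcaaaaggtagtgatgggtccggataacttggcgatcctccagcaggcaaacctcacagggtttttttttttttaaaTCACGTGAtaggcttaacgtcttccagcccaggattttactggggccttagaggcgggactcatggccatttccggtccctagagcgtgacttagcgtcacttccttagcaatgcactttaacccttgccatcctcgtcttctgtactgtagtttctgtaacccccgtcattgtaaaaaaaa
Atp6v0d1 (chr8:105566015-105566314, minus strand): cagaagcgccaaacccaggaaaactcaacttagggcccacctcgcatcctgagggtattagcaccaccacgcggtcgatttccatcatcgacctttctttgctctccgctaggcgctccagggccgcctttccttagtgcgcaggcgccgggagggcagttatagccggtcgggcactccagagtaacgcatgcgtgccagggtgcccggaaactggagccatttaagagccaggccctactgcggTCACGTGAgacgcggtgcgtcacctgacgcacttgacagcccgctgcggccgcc
Atp6v0e (chr17:26676146-26676445, plus strand): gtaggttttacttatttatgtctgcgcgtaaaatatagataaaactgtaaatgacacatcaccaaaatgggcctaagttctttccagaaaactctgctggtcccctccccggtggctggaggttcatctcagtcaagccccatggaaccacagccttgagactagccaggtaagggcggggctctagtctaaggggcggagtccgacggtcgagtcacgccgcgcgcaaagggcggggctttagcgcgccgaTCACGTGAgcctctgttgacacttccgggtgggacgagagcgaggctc
Mcoln1 (chr8:3500269-3500568, plus strand): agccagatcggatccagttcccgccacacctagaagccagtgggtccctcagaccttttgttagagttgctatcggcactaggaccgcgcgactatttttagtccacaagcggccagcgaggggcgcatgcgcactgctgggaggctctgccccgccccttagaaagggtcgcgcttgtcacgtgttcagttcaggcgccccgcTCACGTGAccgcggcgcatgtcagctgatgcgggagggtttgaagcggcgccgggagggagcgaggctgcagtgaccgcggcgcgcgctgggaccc
Ctsa (chr2:164833523-164833822, plus strand): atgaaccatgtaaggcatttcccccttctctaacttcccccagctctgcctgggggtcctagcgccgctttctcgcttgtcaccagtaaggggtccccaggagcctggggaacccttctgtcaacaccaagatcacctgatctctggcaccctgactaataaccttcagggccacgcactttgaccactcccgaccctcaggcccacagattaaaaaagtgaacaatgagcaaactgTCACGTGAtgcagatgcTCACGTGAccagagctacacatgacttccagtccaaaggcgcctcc
Gusb (chr5:130003000-130003299, minus strand): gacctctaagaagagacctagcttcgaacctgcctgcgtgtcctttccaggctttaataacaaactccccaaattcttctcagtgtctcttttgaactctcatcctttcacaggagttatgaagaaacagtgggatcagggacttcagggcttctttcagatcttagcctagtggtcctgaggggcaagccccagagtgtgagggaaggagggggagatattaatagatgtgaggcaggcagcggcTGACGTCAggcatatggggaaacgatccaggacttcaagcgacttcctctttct

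The 8 genes with the TCACGTGA core all passed the filter. Below 0 lay 55.1% of all passing genes and 19 of the other 33 passing genes with a window. Of the 8, 6 had a difference below 0 on the probe set that represents the gene. These were Mcoln1 (-0.53), Clcn7 (-0.40), Atp6v0d1 (-0.33), Ctsd (-0.27), Atp6v0e (-0.14) and Atp6v1a (-0.11), while Gla (0.12) and Ctsa (0.34) lay above 0. The core stood 2 times in the windows of Ctsa and Gla. The median difference was -0.20 over these 8 genes and -0.02 over the other 33 passing genes with a window. With the probe sets of a gene averaged, 7 of the genes passed, 6 lay below 0 and the median was -0.22. Without probe sets marked as matching several transcripts, 6 genes passed, 3 lay below 0 and the median was 0.0052. With Mcoln1 and Clcn7 each represented by the passing probe set with the highest difference, 4 of the 8 lay below 0 and the median was 0.0052. That last choice cannot lower the median. These alternatives were chosen after seeing the data, and the direction of the genes with the core depends on the probe sets used. Both genes with the TGACGTCA element lay above 0, Gusb at 0.45 and Mitf at 0.25, as did 44.8% of all passing genes. The difference of Mitf is smaller than the spread between probe sets, and 2 genes are too few to read a direction. The genes with TGAGTCA were Cd68 (0.23), Glb1 (0.06) and Psap (-0.17). A match describes the letters of the window and does not show a bound site.

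**Figure D2:**
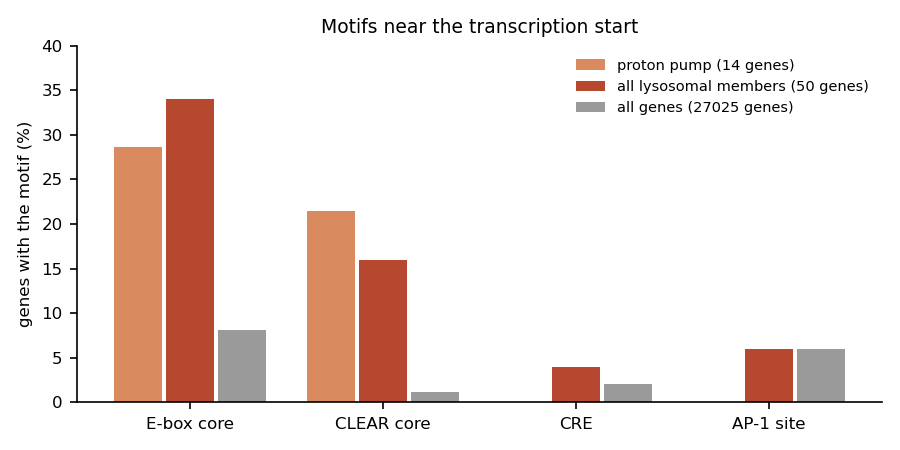
Share of genes, in percent, with each motif in the 300-base window around the RefSeq start, for the 14 pump genes, all 50 lysosomal genes and all 27025 genes with a window. The E-box core is CACGTG, the CLEAR core TCACGTGA, the CRE TGACGTCA and the AP-1 site TGAGTCA. The TCACGTGA core stands in 16% of the lysosomal genes against 1.12% of all genes, and the AP-1 element stands in 6% against 5.95%.

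Among the groups with at least 5 passing genes, the proton pump had the highest share of genes with a difference below 0. It is a rotary machine with a V1 sector in the cytosol, which splits ATP, and a V0 sector in the membrane, which carries the protons. Of its 20 genes on the arrays 14 passed, and 12 of the 14 had a difference below 0, against 55.1% of all passing genes. With quantile normalisation or removal of a trend on level, 11 of the 14 did, since Atp6v0b then lay just above 0. Over probe sets, 30 of 35 passing ones lay below 0, against 56.4% of all passing probe sets, and 2 of the 30 passed through the WT array alone. The median difference of the 14 genes was -0.22, and none reached 2-fold. For 10 of them the difference was smaller than the spread between probe sets of 0.36.

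Within V1, the catalytic core showed small differences. Atp6v1a, the subunit that holds the catalytic sites, read 11.42 on the KO array and 11.53 on the WT array, and its other passing probe set differed by -0.33. Atp6v1b2, the partner of the catalytic subunit outside the kidney, read 10.95 on the KO array and 11.24 on the WT array, with its 4 passing probe sets between -0.56 and -0.05. For both subunits every passing probe set read lower on the KO array.

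Among the V1 genes that passed, the largest differences were in the regulatory subunit H and in a stalk isoform. Atp6v1h, needed to couple ATP splitting to proton flow, read 8.68 on the KO array and 9.31 on the WT array, a difference of -0.63. A difference of this size or more was seen for 15.5% of passing genes. Its other passing probe set passed through the WT array alone and came to -0.23 with the KO value raised to the array median, less than the spread between probe sets. Atp6v1g2, a stalk isoform known from neurons, read 6.31 on the KO array and 6.94 on the WT array, a difference of -0.64 from a single probe set. The size of both differences thus rests on 1 probe set each.

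The rotor and stalk subunits read lower by less. Atp6v1d, part of the central rotor, read 11.75 on the KO array and 11.96 on the WT array, and its 3 passing probe sets ran from -0.46 to -0.21. Atp6v1e1, a peripheral stalk subunit, read 11.60 on the KO array and 11.83 on the WT array, and the 3 of its probe sets above the median on both arrays ran from -0.25 to -0.14. Another passed through the WT array alone and came to -0.46 with the KO value raised to the array median. Atp6v1c1, which joins the stalks to the membrane sector, had 3 passing probe sets from -0.30 to -0.14. The exceptions in V1 were Atp6v1f, another rotor subunit, and Atp6v1g1, the widely expressed stalk subunit. Atp6v1f read 10.87 on the KO array and 10.69 on the WT array. Atp6v1g1 read 13.22 on the KO array and 13.19 on the WT array, and its 2 other passing probe sets lay below 0.

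Within V0, all 5 passing genes had a difference below 0, against 55.1% of all passing genes, with a median of -0.33. Of these, Atp6v0b lay at only -0.0075, and above 0 with quantile normalisation, removal of a trend on level or probe sets averaged. Over V0 probe sets, 9 of 12 passing ones lay below 0, against 56.4% of all passing probe sets. Atp6v0a1 and Atp6v0a2 encode forms of the large membrane subunit that forms the proton path and directs the pump to its compartment. Atp6v0a1 read 9.38 on the KO array and 9.96 on the WT array, a difference of -0.59, but its 4 passing probe sets ran from -0.59 to 0.18. Atp6v0a2 read 8.26 on the KO array and 8.77 on the WT array, and its 3 passing probe sets ran from -0.58 to -0.25. Every passing probe set of Atp6v0a2 was thus lower on the KO array, and for Atp6v0a1 3 of 4 were.

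The remaining V0 subunits differed less. Atp6v0d1, which links the rotor to the proton-carrying ring, read 10.85 on the KO array and 11.18 on the WT array. Atp6v0e, a small membrane subunit, read 12.63 on the KO array and 12.77 on the WT array. Atp6v0b, a member of the ring, read 11.25 on the KO array and 11.26 on the WT array, with 1 of its other probe sets at 0.19, so no common direction is seen. The 6 isoforms that did not pass were Atp6v0a4, Atp6v0d2, Atp6v0e2, Atp6v1b1, Atp6v1c2 and Atp6v1e2, forms known mainly from kidney, osteoclasts, brain or testis. None of them reached the median on either array, and Atp6v1e2, at 4.32 on the KO array and 5.08 on the WT array, was the farthest apart among them.

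**Figure D3:**
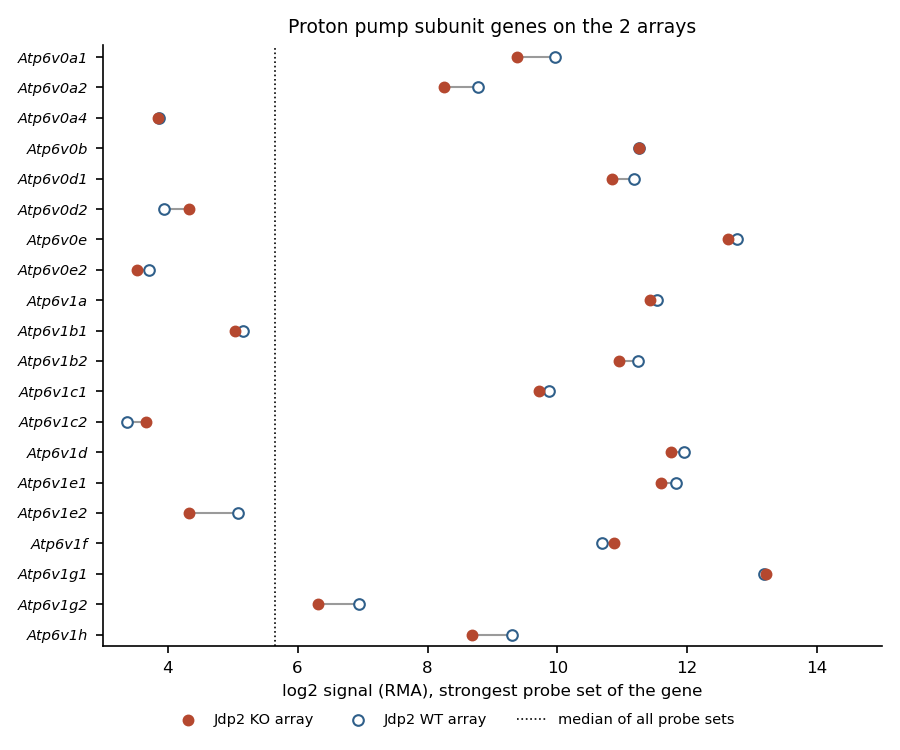
Log2 signals of the 20 pump genes, with a filled point for the KO array and an open point for the WT array, joined by a line, and a dotted line at the mean of the array medians. In 12 of the 14 genes that passed, the filled point lies left of the open one, by at most 0.64.

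The lysosomal proteases split in both directions and held both genes past 2-fold on their main probe sets. Of 10 genes 7 passed, with a median difference of -0.02 that lay above 0 after quantile normalisation (0.0079) or removal of a trend on level (0.021). Ctse, an aspartic protease of endosomes found in blood and immune cells, read 8.53 on the KO array and 9.60 on the WT array, a difference of -1.07 or 2.10-fold. Its other passing probe set read 7.72 on the KO array and 8.01 on the WT array, a difference of -0.30. Both probe sets of Ctse were thus lower on the KO array, the second by less than the spread between probe sets, and the mean over both was -0.68.

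Ctsl, a cysteine endopeptidase of lysosomes, read 9.95 on the KO array and 8.94 on the WT array, a 2.01-fold difference. That value comes from the probe set 1451310_a_at, marked by its maker as matching several transcripts of the gene. The other passing probe set, 1457724_at, read 8.48 on the KO array and 8.56 on the WT array, a difference of -0.07. The direction of Ctsl therefore rests on 1 probe set, and with it left out no lysosomal gene was 2-fold higher on its main probe set. Second passing probe sets of Gm2a (1.10) and Gusb (1.02) were past 2-fold. Markers of monocytes and macrophages, of promyelocyte granules and of platelets were mostly higher on the KO array too, as given above. Any part of such cells in the reading of Ctsl was not tested.

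The other proteases differed by less. Ctsa, a carboxypeptidase that also protects galactosidase and neuraminidase from breakdown, read 9.94 on the KO array and 9.60 on the WT array. Ctsd, the main aspartic protease of the organelle, read 12.26 on the KO array and 12.53 on the WT array, and Ctsh, a cysteine aminopeptidase, read 11.56 on the KO array and 11.80 on the WT array. Both of these were lower on the KO array by less than the spread between probe sets. Ctsb, a cysteine protease with 4 passing probe sets, ran from -0.40 to 0.19 and so has no common direction. Ctsz, a cysteine carboxypeptidase, read 10.78 on the KO array and 10.80 on the WT array. Ctsf, Ctsk and Lgmn did not pass. Ctsk, the collagen-degrading protease of osteoclasts, read 4.70 on the KO array and 3.93 on the WT array, and Lgmn, a protease that cuts after asparagine, read 4.39 on the KO array and 3.97 on the WT array. Values this far under the array median hold background as well as signal.

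**Figure D4:**
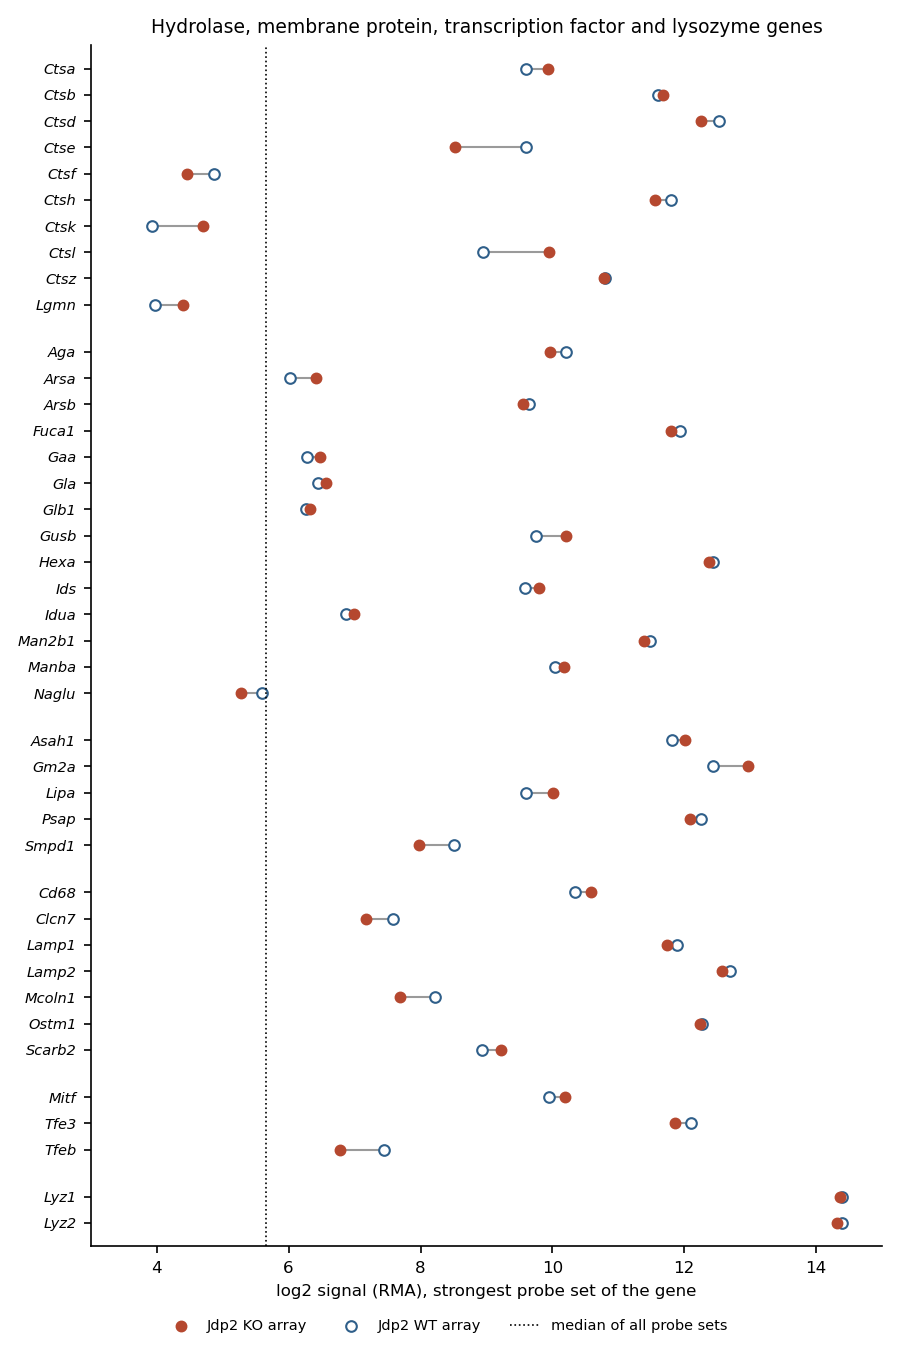
Log2 signals of the 41 genes other than the pump, with a filled point for the KO array and an open point for the WT array, joined by a line, and a dotted line at the mean of the array medians. From top to bottom the blocks are proteases, glycosidases and sulfatases, lipid hydrolases and activators, membrane proteins, transcription factors and lysozymes. The widest gaps are those of Ctse, 2.10-fold lower on the KO array, and Ctsl, 2.01-fold higher.

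The enzymes that take sugars and sulfates off glycans leaned the other way from the pump. Of 14 genes 13 passed, 8 had a difference above 0, against 44.8% of all passing genes, and the median was 0.12. With the filter at the 75th percentile, which left 8 of the genes, the median was -0.080. None of the 13 reached 2-fold on its main probe set. For 11 the difference was smaller than the spread between probe sets.

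Gusb, the beta-glucuronidase, read 10.20 on the KO array and 9.76 on the WT array, a difference of 0.45. Its second passing probe set read 8.17 on the KO array and 7.15 on the WT array, a difference of 1.02. Gusb is the only gene of this group in which several passing probe sets all lay above 0. Arsa, the sulfatase that acts on sulfatide, read 6.42 on the KO array and 6.02 on the WT array. Ids, the iduronate sulfatase, read 9.80 on the KO array and 9.59 on the WT array. Aga, which cuts sugars from asparagine, read 9.96 on the KO array and 10.21 on the WT array, the lowest difference of the group at -0.25.

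In 4 genes of this group the passing probe sets disagreed in sign. Arsb, another sulfatase, ran from -0.09 to 0.48, and Gla, the alpha-galactosidase, from -0.47 to 0.12, with the lower end under the median on the KO array. Fuca1, which removes fucose, ran from -0.15 to 0.02, and Man2b1, an alpha-mannosidase, from -0.10 to 0.14. Hexa, a subunit of beta-hexosaminidase, read 12.37 on the KO array and 12.43 on the WT array. The remaining genes that passed, Gaa, Glb1, Idua and Manba, which act on glycogen, galactosides, iduronides and mannosides, lay between 0.06 and 0.20. Naglu, which acts on heparan sulfate, was under the median on both arrays, at 5.28 on the KO array and 5.60 on the WT array.

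The lipid group had the highest median. All 5 genes passed, 3 lay above 0, against 44.8% of all passing genes, and the median was 0.20. Gm2a, the activator that lifts gangliosides out of membranes for digestion, read 12.97 on the KO array and 12.44 on the WT array, a difference of 0.53. Its second passing probe set read 8.86 on the KO array and 7.76 on the WT array, a difference of 1.10. Lipa, the acid lipase that frees cholesterol from its esters, read 10.01 on the KO array and 9.60 on the WT array, and its 3 passing probe sets ran from 0.24 to 0.41. In both genes every passing probe set was higher on the KO array.

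The other members of the lipid group varied. Asah1, the acid ceramidase, read 12.01 on the KO array and 11.81 on the WT array. Smpd1, the acid sphingomyelinase, which makes ceramide, read 7.97 on the KO array and 8.51 on the WT array, a difference of -0.53. Psap, the precursor of the saposin activators, read 12.09 on the KO array and 12.26 on the WT array, and both of its probe sets lay below 0. Smpd1 and Gm2a thus differed by about the same size in opposite directions.

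The membrane proteins had a median difference of -0.12 over 7 genes, of which 5 lay below 0, against 55.1% of all passing genes. The median was 0.11 once probe sets that can match several transcripts were left out. Lamp1 and Lamp2, the main glycoproteins that line the membrane, differed little. Lamp1 read 11.74 on the KO array and 11.89 on the WT array. Lamp2 read 12.57 on the KO array and 12.69 on the WT array, with its 4 probe sets from -0.21 to -0.05. Scarb2, which carries glucocerebrosidase to lysosomes, read 9.23 on the KO array and 8.94 on the WT array. Cd68, a glycoprotein of the Lamp family that is abundant in macrophages, read 10.58 on the KO array and 10.35 on the WT array. Scarb2 and Cd68 were the 2 genes of the group above 0, both by less than the spread between probe sets.

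The channel genes gave mixed readings. Mcoln1, a calcium channel of the lysosomal membrane, read 7.69 on the KO array and 8.22 on the WT array, while another probe set above both medians differed by 0.32. Its remaining passing probe set passed through the WT array alone and came to -0.70 with the KO value raised to the array median. Clcn7, which exchanges chloride for protons, read 7.18 on the KO array and 7.58 on the WT array, while its other passing probe set, which passed through the KO array alone, came to 0.31 with the WT value raised to the array median. Ostm1, the partner subunit of that exchanger, read 12.25 on the KO array and 12.27 on the WT array. The probe sets of Mcoln1 and Clcn7 thus pointed both ways. The difference above 0 of Mcoln1 was smaller than the spread between probe sets. That of Clcn7 was 0.49 as read, larger than the spread, and smaller than it only with the WT value raised.

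The lysozymes, which cut bacterial cell walls, read near the top of the scale on both arrays. Lyz2, the form of myeloid cells, read 14.31 on the KO array and 14.39 on the WT array. Lyz1, known from Paneth cells of the gut, read 14.36 on the KO array and 14.39 on the WT array on a probe set marked as shared between sequences. Its probe set without that mark read 4.84 on the KO array and 4.67 on the WT array, under both medians. The 2 genes are close copies, so the high reading under the name Lyz1 cannot be told apart from Lyz2, and with array maxima of 14.56 on the KO array and 14.54 on the WT array differences there can be compressed.

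**Figure D5:**
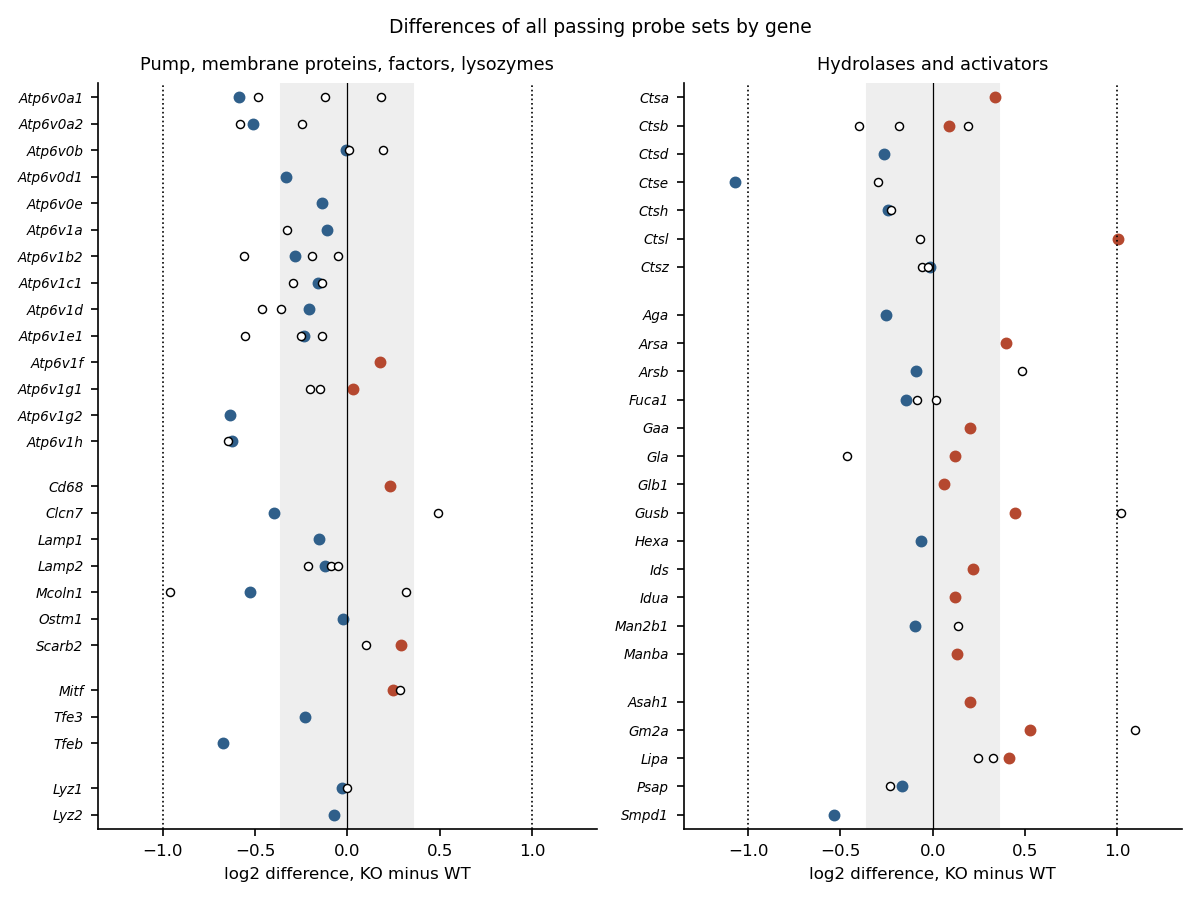
Log2 differences, KO array minus WT array, of every passing probe set by gene. Filled points are the probe set that represents the gene, red above 0 and blue below it, open points are its other probe sets, the grey band is the pooled spread of 0.36 to each side and dotted lines mark 2-fold. The pump genes in the upper left lie mostly below 0, and Ctsl, Mcoln1 and Clcn7 have probe sets on both sides of 0.

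Agreement among probe sets differed between the groups. Of 29 genes with several passing probe sets, 13 had all of them below 0, 5 had all above 0 and 11 had both signs. The same counts over all genes were not made, and 56.4% of all passing probe sets lay below 0. The counts include probe sets that passed through 1 array alone, such as the second one of Atp6v1h. In the pump, 7 of 10 such genes had all below 0, 0 had all above 0 and 3 had both signs. Among glycosidases and sulfatases the counts were 0, 1 and 4 of 5 genes, in the same order. In the lipid group 2 of 3 such genes had all above 0 and 1 had all below 0. The SD of the difference within a gene was 0.20 for the pump, 0.21 for the lipid group, 0.30 for the glycosidases and sulfatases, 0.37 for the proteases and 0.43 for the membrane proteins, and 0.02 for both Mitf and Lyz1, the single such gene of its group.

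Other genes of the lysosome, from a list of 51 of which 45 had a probe set, were also measured. Of 43 that passed, 30 had a difference below 0, against 55.1% of all passing genes, none was past 2-fold on its main probe set, though 2 other passing probe sets (of Galc and Igf2r) were at least 2-fold lower, and the median was -0.12, against -0.04 for all passing genes. Tcirg1, the form of the large V0 subunit known from osteoclasts and immune cells, read 10.04 on the KO array and 10.24 on the WT array. Atp6ap1 and Atp6ap2, accessory proteins of the pump, differed by -0.0046 and -0.017. The farthest apart were genes that mark or sort enzymes, export sugars or cut hyaluronan. Gnptab, a subunit of the enzyme that tags hydrolases with mannose phosphate, read 7.16 on the KO array and 8.03 on the WT array. The other passing probe set of Gnptab differed by only -0.14. Igf2r, a receptor for that tag, read 9.79 on the KO array and 10.38 on the WT array, and its other passing probe set differed by -1.26. Every passing probe set of Gnptab and Igf2r was thus lower on the KO array. Of the same list, M6pr differed by 0.27 and -0.31 on its passing probe sets, and Gnptg by -0.08.

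Nagpa, which uncovers the same tag, read 7.15 on the KO array and 6.55 on the WT array, the highest difference of the list at 0.60. Hyal2, a hyaluronidase, read 5.26 on the KO array and 6.16 on the WT array, which came to 1.41-fold with the KO value raised to its array median. Slc17a5, the exporter of sialic acid, read 5.43 on the KO array and 6.29 on the WT array, or 1.54-fold on the same basis. Dnase2a, the acid DNase, read 8.08 on the KO array and 8.67 on the WT array. These genes were lower on the KO array except Nagpa, and none was 2-fold apart on its main probe set.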

How the data were processed

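The authors deposited probe set values on a log2 scale for 45101 probe sets and 2 arrays, which the submitters' processing notes credit to RMA, with no version or options. Sorted values of the arrays differ by at most 0.12, so the distributions had been matched before deposit. Such summaries give no detection call, and 1 array per group limits the precision of every value.

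Control probe sets (64) were left out. Symbols came from the platform annotation and were updated by Entrez identifier against RefSeq genes of GRCm38.p6 (34741 of 34945 probe sets with 1 symbol matched). The 932 probe sets with several symbols and 9160 unlisted ones were not named. The files name no build, so only promoter windows carry coordinates. The members and lists were chosen with earlier results of these data known. With 1 array per group no test was run: genes past a log2 difference of 1, which is 2-fold, were counted and set beside all passing genes. Every gene of the rule could be named. Of the other lysosome genes, those 2-fold apart, the 6 with the largest difference and Tcirg1 were to be named. Atp6ap1, Atp6ap2, M6pr and Gnptg were added after their values were seen, as were Irf8 and Camp among markers. Counting was checked on simulated arrays. Alternatives, of which those for the genes with the TCACGTGA core were chosen after seeing the data, changed the filter, the scaling, the probe set per gene and the size rule. Python 3.11.15, pandas 2.3.3 and statsmodels 0.14.6 were used.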

Additional observations from a re-analysis of the deposited data

How the results depend on the processing

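No paired analysis was possible because each genotype has 1 array. The pump median kept its direction under all 9 alternatives tried for it, from -0.32 to -0.17, as did the medians of all lysosomal genes, the lipid group and the other lysosome genes. The count of genes at least 2-fold higher was 0, in place of 1, with arrays centred on their medians and with the probe sets of a gene averaged. It was also 0 without probe sets marked as matching several transcripts, of 1 gene or of several. The count at least 2-fold lower was 0, in place of 1, with quantile normalisation, a lowess trend (span 0.3) removed or probe sets averaged, and 5 with a rule of 1.5-fold, which 8.86% of all passing genes met. It stayed at 1 without probe sets marked as matching several transcripts. Without the probe sets so marked, Ctsl turned to -0.072 and the membrane protein median to 0.11, since other probe sets then stand for the genes. The median of the proteases turned to 0.034 with no filter, 0.0079 with quantile normalisation and 0.021 with the trend removed. That of glycosidases and sulfatases turned to -0.080 with the 75th percentile filter and was 0.0070 with probe sets averaged. For the genes with the TCACGTGA core, in alternatives chosen after seeing the data, the median stayed below 0 with probe sets averaged, at -0.22. It turned to 0.0052 without probe sets marked for several transcripts. The same value came with the passing probe sets of highest difference for Mcoln1 and Clcn7. The cause of these shifts was not tested, apart from the change of genes or probe sets that each filter makes. With 1 array a genotype, no alternative shows how far mice of 1 genotype differ.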

Other observations

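Probe sets of a few other lysosome genes differed widely from each other; these were chosen after their values were seen. Galc, the galactosylceramidase that digests myelin lipids, read 9.24 on the KO array and 9.17 on the WT array on the probe set 1420547_at. On 1452907_at it read 6.40 on the KO array and 9.34 on the WT array, a difference of -2.94. Another, 1449900_at, lay under both medians and differed by 0.08. Igf2r differed by -0.59 on 1424111_at and by -1.26 on 1424112_at, so both of its probe sets were lower on the KO array. Neu1, a neuraminidase of the lysosome, had 3 passing probe sets, all below 0, from -0.60 to -0.09.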
